A study of Homo sapiens with 21 samples.

Results

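The gene set holds 36 genes of cholesterol and fatty acid synthesis, of the sterol-sensing machinery that controls them and of the oxysterol response. Members were taken by gene symbol from a deposited table of 16383 genes, with the condition that a gene reach a normalised count of 10 in at least 3 libraries. All 36 met it, among 11579 genes that did so over the whole table. RNA came from IMR90 cells, fibroblasts of human lung, and 3 poly(A)-captured libraries were sequenced for each of 7 groups. Cells of 6 groups were made senescent by irradiation, were given 5 nM siRNA on days 4 and 7 afterwards and were collected on day 10. The siRNA was one of 2 non-targeting controls, named NT3 and NT4, or was directed at CCND1 (cyclin D1), at CDK4, at CDK6, or at CDK4 and CDK6 together (the dual knockdown). Proliferating cells had no irradiation and no siRNA, so irradiation and transfection cannot be told apart in comparisons with them. The labels name 1 siRNA per target without its sequence, so loss of the target and other actions of the same reagent cannot be told apart.

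As background, cells make cholesterol from acetyl-CoA through the mevalonate pathway, which also supplies isoprenoids, and then through squalene and a series of sterol intermediates. Transcription of these enzymes is driven by SREBP proteins, encoded by SREBF1 and SREBF2. SCAP carries SREBPs out of the endoplasmic reticulum when membrane sterol is low, and the INSIG proteins hold SCAP back when sterol is high. SREBP-1 also drives fatty acid synthesis and desaturation, and the oxysterol-activated receptor LXR raises the cholesterol exporters ABCA1 and ABCG1, the lipoprotein-receptor ligase MYLIP and SREBF1 itself. Fibroblasts use these pathways to build and adjust their membranes.

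Between 12892442 and 21822152 reads per library fell in the listed genes. NT3 replicate 3 stood apart from its group, with a standard deviation (SD) of its log2 deviations over all tested genes of 0.344 against 0.193 to 0.256 in the other 20 libraries, and calls of members that changed without it are named in each comparison with the controls. Each siRNA lowered its target: CCND1 lay at 4198 to 5149 normalised counts under its own siRNA and at 15928 or more in every other library. CDK4 lay at 105.6 to 122.5 in the libraries that received its siRNA and at 889 or more elsewhere, and CDK6 at 727 to 834 in CDK6 knockdown and 930 to 998 in the dual knockdown, without overlap, against 3483 or more elsewhere. The summed level of the 9 fibroblast markers ranged from 451735 to 620896 in 6 groups and from 681903 to 867109 in the dual knockdown. COL1A1 and COL1A2 made up most of it, and single markers moved in different directions. Mean PDGFRA was 8167 in proliferating cells and 3811 in NT3, and mean LUM 1436 and 3122. The sum of the 4 adipocyte markers ranged from 0 to 10.7 and that of the 5 epithelial markers from 14.5 to 55.0. The sum of the 5 endothelial markers was 1763 to 1888 in proliferating cells, 2592 to 3717 in NT3, 2058 to 2435 in NT4, 4092 to 4509 in CDK6 knockdown and 3441 to 3694 in the dual knockdown. TEK made up most of it, while PECAM1 was at 20.6 or less in every library and CDH5 at 3.28 or less. The sum of the 6 leukocyte markers was 654 to 688 in proliferating cells, 889 to 991 in NT3, 1266 to 1417 in NT4 and 1498 to 1604 in CDK4 knockdown. CD68 made up most of that sum, and PTPRC, the pan-leukocyte marker, was at 8.90 or less in every library. The member with the fewest reads was ACACA, at 1 to 115 reads per library. The other 35 had 40 reads (TM7SF2) to 19551 reads (SCD), and 32 had 100 or more in every library.

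The promoters of the members are shown for the letters that SREBP's partner factor NF-Y is known to bind. RefSeq promoters (GRCh38.p14, the 250 bases before each gene's start) were matched by symbol for 31 of the 36 members, which gave 45 promoters. The letters CCAAT, searched on both strands, were present in 26 of the 45 (57.8%) and in 32.0% of 35116 RefSeq promoters of the same length. A sterol element, TCACNCCAC on both strands, was present in 1 of 45, that of SREBF2, 133 bases before the start, and in 0.883% of all promoters. An LXR element, AGGTCA repeated on the same strand after 4 other bases, was found in 0 of the 45 and in 0.0142% of all promoters. At so low a share its absence from the 45 is uninformative. ACAT2, FDFT1, SQLE, FASN and ABCG1 had no matched promoter and were not searched. A match is a description of these letters and not of binding. The stretches that follow come from promoters of genes on which the results turn, in lower case with CCAAT or its reverse complement ATTGG in capitals.
INSIG1, sterol-sensing protein lowest in CDK6 knockdown (chr7:155297688-155297732, plus strand): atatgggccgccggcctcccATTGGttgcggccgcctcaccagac
SCD, the desaturase with the deepest fall in senescence (chr10:100346984-100347071, plus strand): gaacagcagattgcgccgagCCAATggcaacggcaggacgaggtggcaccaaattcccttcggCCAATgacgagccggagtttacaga
MSMO1, a sterol enzyme with 4 such matches (chr4:165327464-165327659, plus strand): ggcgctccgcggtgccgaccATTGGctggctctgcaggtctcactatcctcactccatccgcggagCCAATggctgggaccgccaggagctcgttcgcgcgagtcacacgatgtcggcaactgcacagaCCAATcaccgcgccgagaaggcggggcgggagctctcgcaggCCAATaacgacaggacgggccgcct
STARD4, a sterol carrier (chr5:111512641-111512716, minus strand): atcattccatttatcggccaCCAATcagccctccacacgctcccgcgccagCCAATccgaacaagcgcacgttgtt
ACSS2, an acetyl-CoA source (chr20:34874846-34874890, plus strand): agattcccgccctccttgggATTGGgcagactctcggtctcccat

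**Figure D1:**
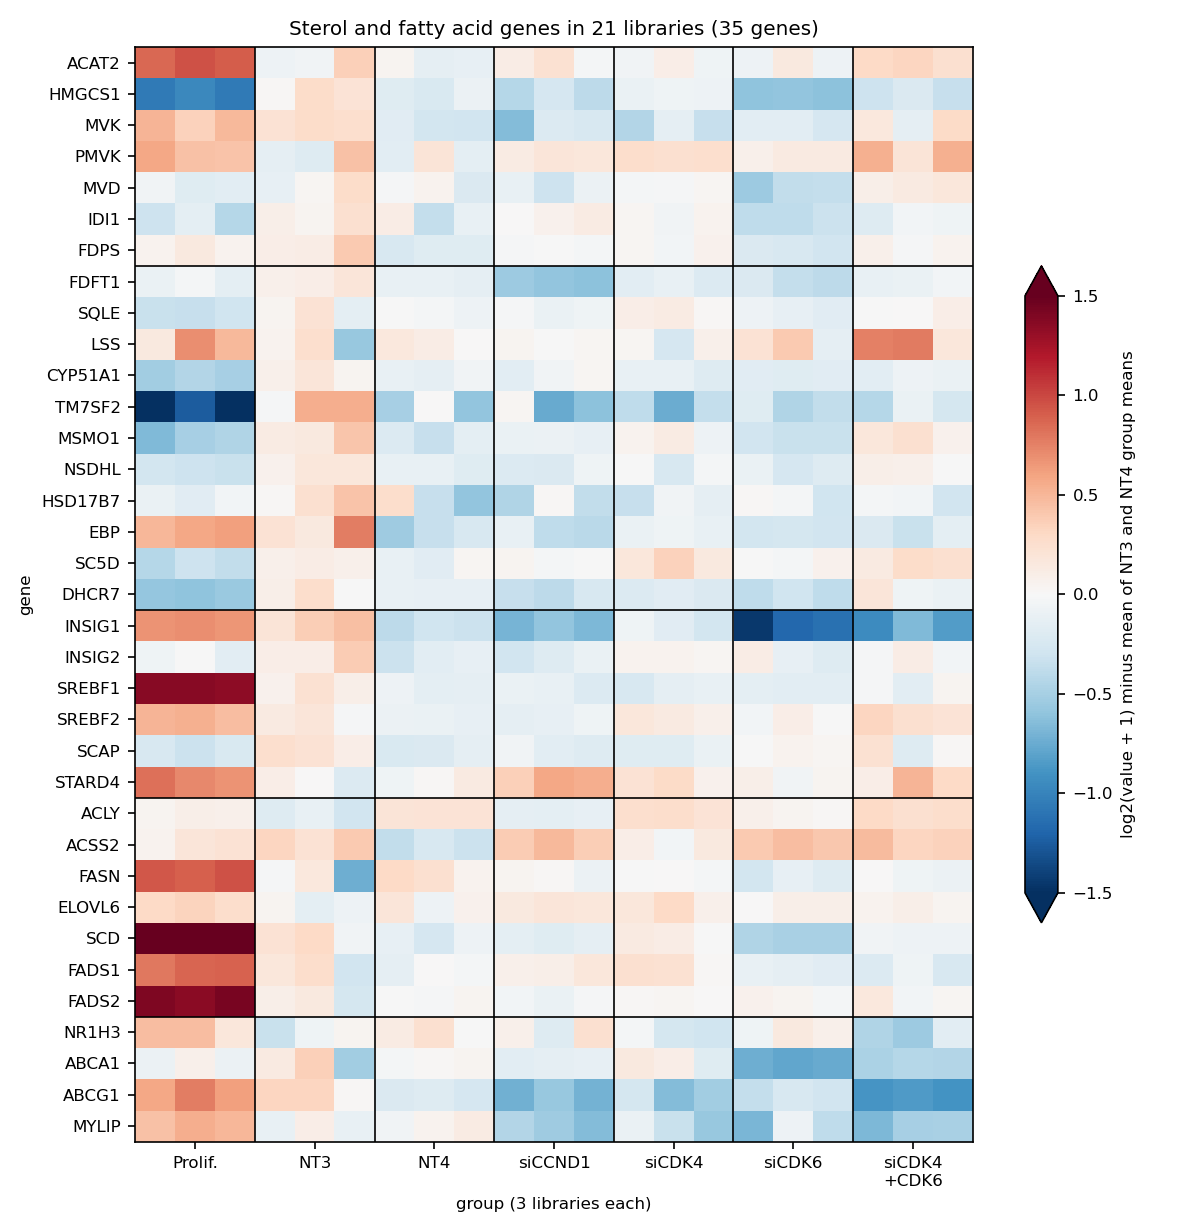
Log2 difference of each library from the mean of the 6 non-targeting libraries for 35 members (rows, by role) in the 21 libraries (columns, by group); ACACA, at 1 to 115 reads, is not drawn. SCD, FADS1, FADS2 and FASN are high in the proliferating libraries, INSIG1 is lowest in CDK6 knockdown, and the 3 NT4 libraries differ from the 3 NT3 libraries at many rows.

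Senescent controls (NT3 and NT4, 6 libraries) were first compared with proliferating cells (3 libraries). Of 8 fatty acid synthesis and desaturation genes 6 were lower in the senescent cells, and 7 of 11 genes from squalene to cholesterol were higher. SCD, the stearoyl-CoA desaturase, fell 4.43-fold and FADS2, the delta-6 desaturase, 2.63-fold, while HMGCS1, a synthase of the mevalonate pathway, rose 2.04-fold. Of the 36 members, 28 passed the threshold (an adjusted p under 0.05 in limma, a linear model with 1 variance trend over all genes), which is 77.8%, beside 68.6% of all genes tested. There were 10 higher and 18 lower, beside 32.6% and 36.1% of all genes. The median log2 fold change of the members was -0.22, beside -0.03 over all tested genes. The count depended little on the scaling but its split did: median centring gave 13 higher and 15 lower and quantile normalization 13 higher and 17 lower. The median over all tested genes moved by 0.11 on the log2 scale under median centring. Fewer cells of a kind and less RNA per cell cannot be told apart in these bulk libraries.

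Among the 7 genes of the mevalonate and isoprenoid steps, 2 rose and 3 fell. HMGCS1 had normalised counts of 618, 659 and 617 in proliferating cells, 1296, 1557 and 1479 in NT3 and 1135, 1095 and 1214 in NT4. All 6 senescent libraries lay above all 3 proliferating ones (log2 fold change 1.03, standard error (SE) 0.06, adjusted p = 1.29e-12). IDI1, which isomerizes the first isoprenoid unit, rose by 0.29 (SE 0.08, adjusted p = 0.00282), with overlapping libraries, and was not called against NT4 alone (0.17, adjusted p = 0.111). ACAT2, the thiolase that joins acetyl-CoA units, fell from 1174 ± 35.7 (SD, n = 3) to 629 ± 87.1 (n = 6), with a log2 fold change of -0.91 (SE 0.09, adjusted p = 3.84e-09). MVK and PMVK, the kinases that phosphorylate mevalonate in turn, had log2 fold changes of -0.44 (adjusted p = 0.000673) and -0.48 (adjusted p = 0.000719). MVK was at 342, 304 and 337 in proliferating cells, 279, 292 and 286 in NT3 and 213, 198 and 196 in NT4. Its groups did not overlap, but against NT3 alone the difference was -0.19 and not called (adjusted p = 0.155). MVD, the decarboxylase, and FDPS, which builds farnesyl diphosphate, differed by 0.13 and -0.086 and were not called. FDPS was called as lower without NT3 replicate 3 (-0.13, adjusted p = 0.00499). FDPS has near-identical pseudogene copies, and how reads shared with them were counted is not stated, so its values are uncertain.

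Of the 11 genes from squalene to cholesterol, 7 rose and 2 fell. SQLE, squalene epoxidase, was at 1144, 1136 and 1175 in proliferating cells, 1482, 1676 and 1303 in NT3 and 1440.1, 1416 and 1375 in NT4. The groups did not overlap, and the rise was small (log2 fold change 0.33, SE 0.06, adjusted p = 4.8e-05). TM7SF2, a sterol C14 reductase, had the largest fold of the rises, from 41.9, 52.1 and 35.4 to 124, 183 and 183 in NT3 and 87.9, 126 and 82.7 in NT4 (1.53, SE 0.18, adjusted p = 1.81e-07). Its counts were the lowest of the called members, and the fold change on the log2 scale of the value plus 1 slightly understates changes at low values. The C4 demethylation enzymes MSMO1 and NSDHL rose by 0.54 and 0.31, the lanosterol demethylase CYP51A1 by 0.49, the desaturase SC5D by 0.37 and DHCR7, the 7-dehydrocholesterol reductase, by 0.58. These 5 did not overlap between senescent and proliferating libraries, and their adjusted p ranged from 9.14e-09 (CYP51A1) to 0.00019 (NSDHL). LSS, which closes squalene epoxide into lanosterol, and EBP, the sterol isomerase, fell by 0.45 (adjusted p = 0.0186) and 0.56 (adjusted p = 8.59e-05) on the log2 scale. LSS was at 315, 459.7 and 399 in proliferating cells, 295, 337 and 191 in NT3 and 316, 307 and 285 in NT4, with overlap. Without proliferating replicate 2 or 3 it was no longer called (-0.32, adjusted p = 0.133, and -0.42, adjusted p = 0.0605), nor under median centring (-0.33) or quantile normalization (-0.31). EBP was at 408, 431 and 441 in proliferating cells, 334, 320.0 and 491 in NT3 and 199, 227 and 243 in NT4. Against NT3 alone it differed by -0.19 and was not called (adjusted p = 0.189).
FDFT1, squalene synthase, at 1819, 1910.1 and 1764 in proliferating cells, 2062, 2086 and 2221 in NT3 and 1812, 1810.1 and 1779 in NT4, was not called (0.095, adjusted p = 0.0837), and was called with 0.21 under median centring. HSD17B7, the 3-ketosterol reductase, was not called (0.10). It too has near-identical pseudogene copies, so its values are uncertain.

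Of the 6 genes of sterol sensing and transfer, 1 rose and 4 fell. SREBF1 was at 2113, 2111 and 2083 in proliferating cells, 854, 957 and 869 in NT3 and 775, 741 and 744 in NT4, a fall of 2.56-fold (log2 fold change -1.36, SE 0.05, adjusted p = 3.12e-15). SREBF2 was at 3278, 3318 and 3178, then 2534, 2612 and 2280.3 in NT3 and 2168, 2151 and 2109 in NT4 (-0.50, SE 0.05, adjusted p = 7.23e-09). In both genes every senescent library lay below every proliferating one. INSIG1 was at 1323, 1337 and 1305 in proliferating cells, 942, 1071 and 1127 in NT3 and 629.9, 671 and 661 in NT4. It fell in the senescent cells (-0.68, SE 0.08, adjusted p = 7.79e-08), and the log2 fold change was -0.34 against NT3 alone and -1.01 against NT4 alone, so the size of its fall depended on the control siRNA. STARD4, which carries cholesterol between membranes, fell from 1036 ± 54.5 (SD, n = 3) to 621 ± 52.4 (n = 6), a log2 fold change of -0.74 (adjusted p = 9.01e-08). SCAP rose by 0.26 (adjusted p = 0.00189), and was not called against NT4 alone (0.07, adjusted p = 0.449). INSIG2 was not called (0.077, adjusted p = 0.419). Under median centring it was called (0.19).

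Of the 8 fatty acid genes, 6 fell and 0 rose. SCD was at 16280.0, 17087 and 17318 in proliferating cells, 4411, 4679 and 3664 in NT3 and 3500.1, 3199.8 and 3614 in NT4. The senescent libraries together kept 22.8% of the proliferating level (log2 fold change -2.15, SE 0.06, adjusted p = 1.21e-17). FADS2 was at 9040.1, 8745 and 9162, then 3627, 3788 and 2845 in NT3 and 3411, 3382 and 3501 in NT4 (-1.40, SE 0.07, adjusted p = 4.23e-14). FASN, the fatty acid synthase, was at 6656, 6510.4 and 6747, then 3452, 3906 and 2097 in NT3 and 4298, 4117 and 3635 in NT4 (-0.93, SE 0.12, adjusted p = 3.2e-07). The lowest FASN library was NT3 replicate 3, and without it the difference was -0.79. None of these 3 genes overlapped between the groups. FADS1, the delta-5 desaturase, fell by 0.85 (adjusted p = 9.93e-09) and ELOVL6, which elongates palmitate, by 0.30 (adjusted p = 0.000189). ACSS2, which makes acetyl-CoA from acetate, fell by 0.15 (adjusted p = 0.0387). Its value was 0.16 against NT3 alone, -0.46 against NT4 alone and -0.037, not called, under median centring. ACLY, which makes acetyl-CoA from citrate, was at 7243, 7484 and 7433 in proliferating cells, 6126, 6510.5 and 5738 in NT3 and 8047, 8105 and 8074 in NT4. It was not called (-0.072, adjusted p = 0.128), with NT3 below and NT4 above the proliferating libraries. ACACA, acetyl-CoA carboxylase, had values from 0.98 to 101.9 over all libraries and was called in none of the 9 comparisons by limma. Under quantile normalization it was called here (-1.98).

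Of the 4 genes of LXR and its targets, 3 fell. ABCG1 was at 497, 569 and 512 in proliferating cells, 415, 416 and 339 in NT3 and 287, 291 and 279.9 in NT4 (-0.66, SE 0.09, adjusted p = 6.89e-07). MYLIP fell by 0.49 (adjusted p = 0.00093) and NR1H3, which encodes LXR-alpha, by 0.36 (adjusted p = 0.015). NR1H3 was not called against NT4 alone (-0.25), under median centring (-0.25) or without proliferating replicate 1 or 2 (-0.31 and -0.32). ABCA1 was at 1649, 1839.9 and 1648 in proliferating cells, 1918, 2249.6 and 1222 in NT3 and 1708, 1775 and 1799 in NT4, and was not called (0.034, SE 0.12, adjusted p = 0.808). It was called as higher without NT3 replicate 3 (0.16, adjusted p = 0.0186). Of all 36 members, 22 had no overlap between the senescent and proliferating libraries (54.1% of all genes had none).

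**Figure D2:**
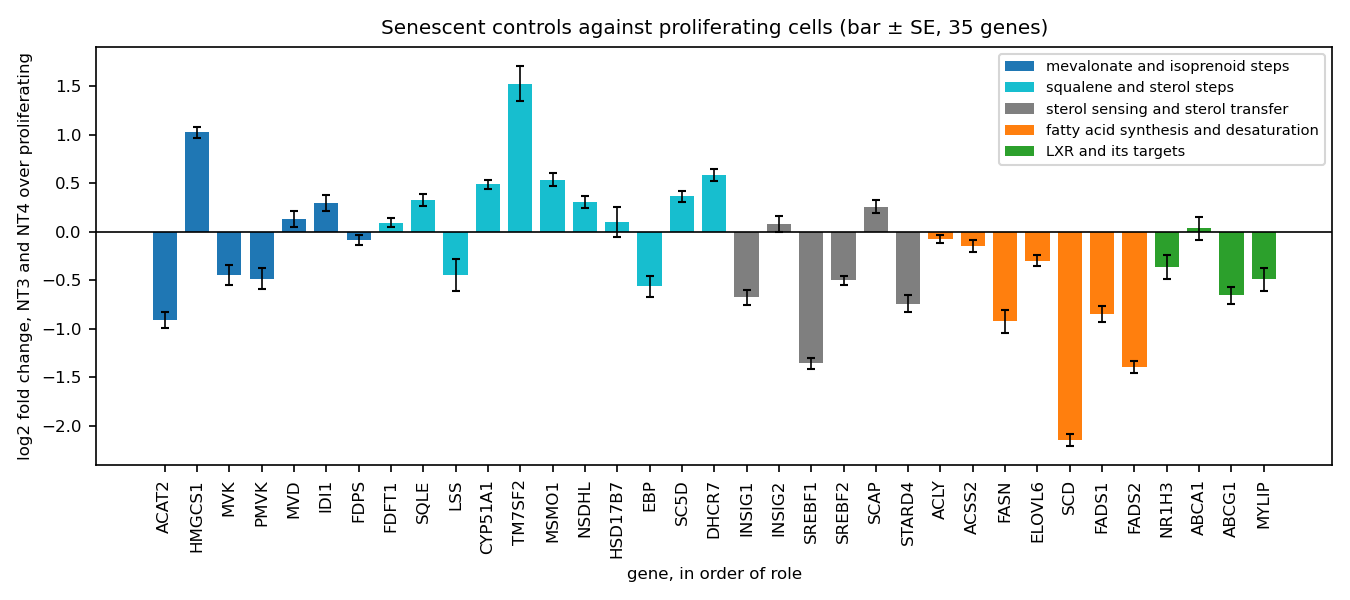
Log2 fold change of the senescent controls against proliferating cells (vertical axis) for 35 members (horizontal axis). Bars are grouped and coloured by role, with standard errors as error bars, and the limma calls are not marked. Bars of the squalene and sterol enzymes lie mostly above 0, and those of SCD, FADS2 and SREBF1 reach farthest below it.

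The 2 non-targeting siRNAs were then compared, since both serve as controls. Of the 11 squalene and sterol genes 8 were lower in NT4, as were INSIG1 and both SREBF genes, while ACLY was higher. By limma, 21 of 36 members (58.3%) differed, 2 higher and 19 lower in NT4, beside 27.8% of all genes (14.7% higher and 13.1% lower). The median of the members was -0.22, beside -0.01 over all genes. Libraries did not overlap at 19 members, beside 34.9% of all genes. Of the 18 enzymes of cholesterol synthesis, 11 were lower in NT4 and 0 higher. EBP had the largest called difference (-0.75, SE 0.12, adjusted p = 0.000113), followed by TM7SF2 (-0.72, SE 0.21, adjusted p = 0.0143) and INSIG1 (-0.67, SE 0.09, adjusted p = 7.5e-06). The NT3 and NT4 libraries of EBP and INSIG1 did not overlap, and those of TM7SF2 did. TM7SF2 was not called without NT4 replicate 1 (-0.65) or 3 (-0.61). Among the fatty acid genes ACLY was higher in NT4 (0.40, adjusted p = 2.03e-06) and ACSS2 lower (-0.62, adjusted p = 1.55e-06). FASN was also called as higher in NT4 (0.40, adjusted p = 0.0308). Without NT3 replicate 3 its difference was 0.13 and not called, while SQLE (-0.16), FADS1 (-0.27) and ABCA1 (-0.24) were called as lower. A fit of these 6 libraries alone, with its own variance, called 9 members and 955 genes.

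CDK6 knockdown (3 libraries) was compared with both controls (6 libraries). INSIG1, SCD, ABCA1 and 10 of the 18 cholesterol enzymes were lower in the knockdown, and ACSS2 was the sole member higher. By limma 17 members (47.2%) were called, 1 higher and 16 lower, beside 41.9% of all genes (21.1% higher and 20.8% lower). The median of the members was -0.16, beside -0.01 over all genes. Libraries did not overlap at 9 members, beside 28.6% of all genes. Each knockdown is set against the same 6 control libraries, so the comparisons with the controls are not independent of one another.

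INSIG1 in CDK6 knockdown was at 303, 365 and 379, below every library of the other 6 groups. The difference from the controls was 2.37-fold (log2 fold change -1.25, SE 0.08, adjusted p = 6.11e-11). It was -1.58 against NT3 alone and -0.91 against NT4 alone, called in both. HMGCS1 was at 844, 852 and 836, below all control libraries (-0.61, SE 0.06, adjusted p = 5.67e-08), and was lower than either control alone (-0.77 against NT3 and -0.44 against NT4). MVD, FDFT1 and DHCR7 were likewise lower without overlap (-0.42, -0.33 and -0.36) and were called against each control. FDFT1 was at 1676, 1521 and 1486 in this group. IDI1, FDPS, CYP51A1, MSMO1, NSDHL and EBP were called with log2 fold changes from -0.36 (IDI1) to -0.17 (CYP51A1), but none of these 6 was called against NT4 alone. Against NT4 alone EBP was at 0.098 (adjusted p = 0.592). SQLE was at 1369, 1329 and 1287 and was not called (-0.12, adjusted p = 0.106). It was called under quantile normalization (-0.17) and without NT3 replicate 3 (-0.17). Without that library PMVK was also called, as higher (0.22), and EBP was not called (-0.18).

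Of the sensing genes, SREBF1 at 741, 736 and 732 was called as lower (-0.15, adjusted p = 0.0263), and not against NT4 alone (-0.032). SREBF2 at 2245, 2474 and 2283 was not called (0.019, adjusted p = 0.782). SCD was at 2781, 2723 and 2729, below all other irradiated libraries (-0.47, SE 0.06, adjusted p = 1.77e-06). FASN at 2889.6, 3198 and 3050.3 was not called (-0.20, adjusted p = 0.175). Without NT3 replicate 3 FASN (-0.33, adjusted p = 4.84e-06) and FADS1 (-0.22, adjusted p = 0.000942) were called as lower. ACSS2 was above the controls (0.42, adjusted p = 1.46e-05), by 0.11 against NT3 alone, which was not called, and by 0.73 against NT4 alone. ABCA1 was at 1056, 1017 and 1037, below the lowest control library (-0.76, SE 0.12, adjusted p = 1.95e-05). The difference was -0.75 against NT3 alone and -0.76 against NT4 alone. That likeness rests on NT3 replicate 3, at 1222 beside 1918 and 2249.6 in the other NT3 libraries. Without it ABCA1 was lower in NT4 than in NT3 (-0.24, adjusted p = 0.019 by limma). MYLIP fell by 0.38 (adjusted p = 0.0134) and ABCG1, at 261, 282 and 273, by 0.29 (adjusted p = 0.00919). ABCG1 was not called against NT4 alone (-0.073). Without CDK6 knockdown replicate 1 neither gene was called (MYLIP -0.23, adjusted p = 0.158, and ABCG1 -0.26, adjusted p = 0.0504).

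**Figure D3:**
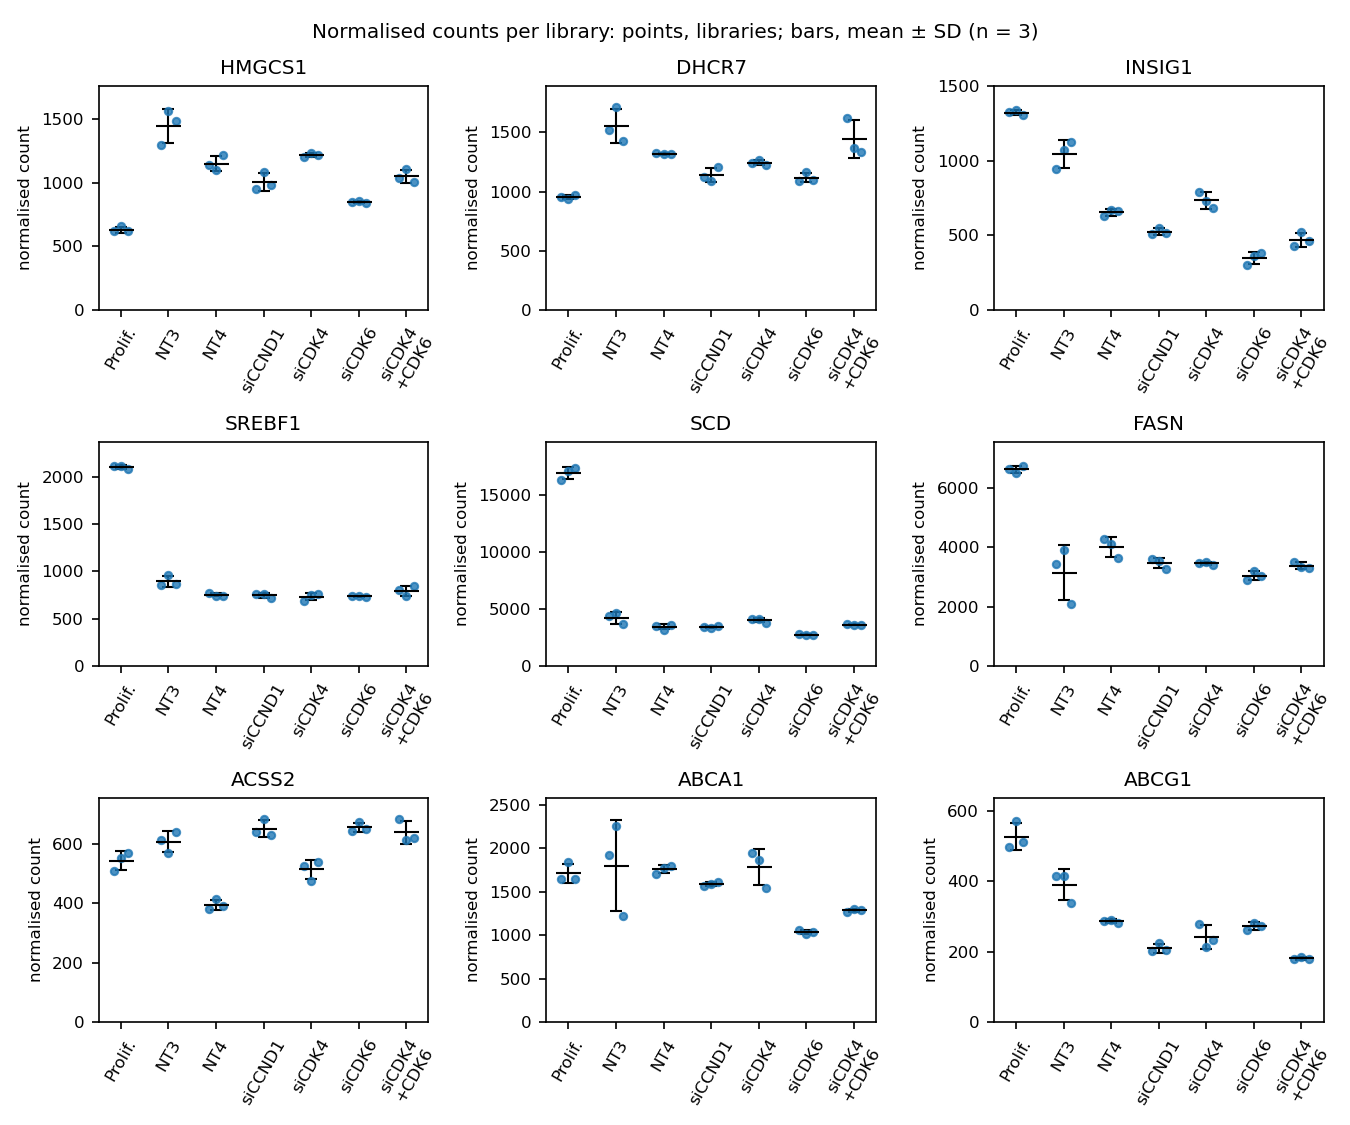
Normalised counts of 9 members in each of the 21 libraries (points) with the group mean and SD (n = 3). INSIG1 is lowest in CDK6 knockdown (303 to 379), SCD is highest in proliferating cells (16280.0 to 17318), and ABCG1 is lowest in the dual knockdown (178 to 185).

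CCND1 knockdown lowered FDFT1, INSIG1, ABCG1 and MYLIP and raised STARD4, each without overlap with the controls. By limma 12 members (33.3%) were called, 3 higher and 9 lower, beside 31% of all genes (16.7% higher and 14.4% lower). The median was -0.12, beside -0.01 over all genes, and 7 members did not overlap (21.2% of all genes). Quantile normalization gave 2 higher and 12 lower. Without NT3 replicate 3 the count was 20 (5 higher, 15 lower), and against NT3 alone 21. Shares of all genes in these settings are not given, so the counts compare settings only. FDFT1 was at 1343, 1295 and 1271, the lowest values among the 7 groups (-0.58, SE 0.05, adjusted p = 1.56e-08). INSIG1 was at 509, 549 and 517 (-0.65, SE 0.08, adjusted p = 1.79e-06), with -0.99 against NT3 alone and -0.32 against NT4 alone. ABCG1 was at 202, 224 and 203 (-0.67, SE 0.09, adjusted p = 5.49e-06). These 3 were lower than either control alone. MYLIP fell by 0.54 (adjusted p = 0.00156), and STARD4 rose to 793, 927 and 901 (0.49, adjusted p = 0.000149), called against each control.

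HMGCS1, at 953, 1081 and 979, and DHCR7 were lower in CCND1 knockdown by 0.36 (adjusted p = 9.91e-05) and 0.33 (adjusted p = 0.000417) on the log2 scale. HMGCS1 was not called against NT4 alone (-0.19, adjusted p = 0.0508). MVK at 152, 208 and 203 was called (-0.37), but not against NT4 alone (-0.12) or without CCND1 knockdown replicate 1 (-0.22). EBP was called (-0.30) with a sign that turned against NT4 alone (0.075). EBP at 267, 221 and 218 overlapped the controls. ACSS2 was higher (0.41, adjusted p = 3.99e-05), by 0.10 against NT3 alone, not called, and by 0.72 against NT4 alone. ACLY at 6416, 6328 and 6436 was called as lower (-0.14), and its difference was 0.064 against NT3 alone. ELOVL6 was called as higher by 0.16 (adjusted p = 0.0457) and not against NT4 alone (0.11). SQLE at 1425, 1349.7 and 1387, SREBF1 at 764, 759.6 and 714, SREBF2 at 2104, 2120.0 and 2192, FASN at 3601, 3546 and 3280.1, SCD at 3434, 3362 and 3483 and ABCA1 at 1562, 1593 and 1609.6 were not called, with log2 fold changes from -0.15 (SCD) to -0.01 (FASN). Of these 6, all but SQLE were called as lower without NT3 replicate 3, with SCD at -0.21 (adjusted p = 0.000285), ABCA1 at -0.27 (adjusted p = 0.00099), SREBF1 at -0.15, FASN at -0.14 and SREBF2 at -0.13. SCAP (-0.16) and FADS2 (-0.11) were then called as lower and ACAT2 (0.18) and PMVK (0.26) as higher, and EBP (-0.20) was not called.

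CDK4 knockdown gave the fewest calls, and no member was called in every alternative. By limma 8 members (22.2%) passed, 3 higher and 5 lower, beside 16% of all genes (8.46% higher and 7.55% lower). The median was -0.01, beside 0.00 over all genes, and 3 members did not overlap (11.2% of all genes). The count was 13 without NT3 replicate 3, 5 without any single NT4 library, and 4 without any single CDK4 knockdown library. How the share of all genes moved in these settings is not given. ABCG1, at 277, 212 and 233, had the largest called difference (-0.48, SE 0.09, adjusted p = 0.000549), without overlap, and was not called against NT4 alone (-0.26, adjusted p = 0.105). MVK at 177, 219 and 189 was next (-0.30, adjusted p = 0.0489), at -0.054 against NT4 alone. ACLY at 8395, 8413 and 8098 was higher (0.24, adjusted p = 0.000326), at 0.04 against NT4 alone. SC5D was also higher (0.22, adjusted p = 0.0107) and not called against NT3 alone (0.13). FDFT1, DHCR7, SREBF1 and ELOVL6 had differences of -0.16, -0.20, -0.16 and 0.18, and none of these 4 was called against NT4 alone. HMGCS1 was at 1201, 1228 and 1219, INSIG1 at 791, 732 and 680.2 and SCD at 4167, 4113 and 3800.2, and none of them was called (-0.08, -0.17 and 0.078). PMVK was called as higher without NT3 replicate 3 (0.35) and CYP51A1 (-0.15), SCAP (-0.18), FASN (-0.14) and MYLIP (-0.35) as lower.

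The other members in this group lay mostly within the range of the controls. SQLE was at 1542, 1572 and 1456, FDFT1 at 1757, 1808 and 1691 and FASN at 3484, 3513 and 3413. SREBF1 was at 691, 748 and 761, SREBF2 at 2595, 2526 and 2424 and ABCA1 at 1939.6, 1869 and 1543. Of these 6 genes, FDFT1 in replicates 1 and 3 and SREBF1 in replicate 1 lay below all control libraries.

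In the dual knockdown the exporters and MYLIP were lower, INSIG1 and HMGCS1 were lower, and some synthesis genes were higher. By limma 14 members (38.9%) were called, 8 higher and 6 lower, beside 44% of all genes (22.5% higher and 21.5% lower). The median was 0.02, beside 0.00 over all genes, and 6 members did not overlap (28.3% of all genes). Quantile normalization gave 8 higher and 9 lower. All 4 genes of LXR and its targets were called as lower. ABCG1 was at 179.9, 185 and 178, below every other library (1.84-fold; log2 fold change -0.88, SE 0.09, adjusted p = 3.82e-08). ABCA1 was at 1264, 1300.5 and 1287 (-0.45, SE 0.12, adjusted p = 0.00336). It lay below 5 of the 6 control libraries, NT3 replicate 3 being lower still. MYLIP fell by 0.55 (adjusted p = 0.000719) without overlap. NR1H3 at 78.4, 73.2 and 96.1 fell by 0.38 (adjusted p = 0.0177) and was not called under quantile normalization (-0.17) or without dual knockdown replicate 1 or 2 (-0.35 and -0.30).

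INSIG1 in the dual knockdown was at 430.5, 522 and 463, below all controls (-0.81, SE 0.08, adjusted p = 2.27e-08), with -1.15 against NT3 alone and -0.47 against NT4 alone. HMGCS1 at 1033, 1105 and 1008 fell by 0.29 (adjusted p = 0.000377) and was not called against NT4 alone (-0.13). LSS at 481, 486 and 319 rose (0.57, SE 0.16, adjusted p = 0.00694), with replicate 3 within the range of the controls. Without dual knockdown replicate 1 or 2 LSS was not called (0.47 and 0.46). PMVK (0.42), STARD4 (0.30), ACAT2 (0.29), SREBF2 (0.26) and SC5D (0.22) were also higher. PMVK lost its call when only the control and dual libraries were fitted (0.42, adjusted p = 0.0524). SREBF2 was at 2884, 2716 and 2653, above all controls, and was called against each of them. STARD4 was not called without dual knockdown replicate 2 (0.20), and against NT3 alone ACAT2 (0.21) and SC5D (0.13) were not called. ACLY at 8644, 8288 and 8456 was higher (0.27, adjusted p = 1.87e-05), by 0.47 against NT3 alone and 0.067, not called, against NT4 alone. ACSS2 (0.38) had the opposite dependence, 0.071, not called, against NT3 alone and 0.69 against NT4 alone. MVK at 268, 219 and 293, FDFT1 at 1803, 1824 and 1901, SQLE at 1434, 1452 and 1549, SREBF1 at 807, 735 and 844, FASN at 3519, 3337 and 3295 and SCD at 3664, 3602 and 3621 were not called. SCD (-0.07, adjusted p = 0.358) was called under quantile normalization (-0.17), and FDFT1 (-0.085) likewise (-0.14). Without NT3 replicate 3 FASN moved from -0.047 to -0.18 (adjusted p = 0.0038), SCD to -0.12 (adjusted p = 0.0146) and FADS1 from -0.17 to -0.25 (adjusted p = 0.000229), each then called as lower. CYP51A1 (-0.13) was then also called as lower and MVD (0.19) and MSMO1 (0.20) as higher.

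The dual knockdown was also set against the summed log2 effects of the single kinase knockdowns. Whether its 5 nM dose was per siRNA or in total is not stated here. At 9 members the dual effect lay above that sum. By limma 9 members (25.0%) departed from the sum, 9 above it and 0 below, beside 6.35% of all genes (2.63% above and 3.71% below). The median departure was 0.16, beside 0.00 over all genes. Of the 9, 7 were cholesterol enzymes, and the other 2 were INSIG1 and SCD. For INSIG1 the single effects summed to -1.42 and the dual effect was -0.81, a departure of 0.61 (SE 0.12, adjusted p = 0.00226). For DHCR7 the sum was -0.55 and the dual effect 0.01 (departure 0.56, SE 0.09, adjusted p = 0.00068). For HMGCS1 they were -0.69 and -0.29 (departure 0.39, SE 0.09, adjusted p = 0.011). For MVD they were -0.43 and 0.13, and for FDFT1 -0.48 and -0.09. The departures of MVK, MSMO1, NSDHL and SCD were 0.60, 0.44, 0.32 and 0.32. MVD, FDFT1 and DHCR7 were called in every alternative tried. With NT3 alone as control 15 members were called and with NT4 alone 4, and without NT3 replicate 3 the count was 14, the added members being FDPS (0.22), CYP51A1 (0.21), SREBF1 (0.28), FASN (0.30) and ABCA1 (0.42). The share of all genes called in these settings is not given, so the counts do not set the members apart from other genes. With NT4 alone the departure was 0.27 for INSIG1, 0.23 for HMGCS1, 0.35 for MVK, 0.21 for MSMO1, 0.19 for NSDHL and 0.17 for SCD, and these 6 were not called. On recovered reads edgeR, which was run without dual knockdown replicate 3, did not call MVK (0.50), NSDHL (0.34) or SCD (0.32). CDK6 itself was at 773 ± 54.7 (SD, n = 3) in CDK6 knockdown and 968 ± 34.4 (n = 3) in the dual knockdown, and the part of that difference in the departures was not tested.

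**Figure D4:**
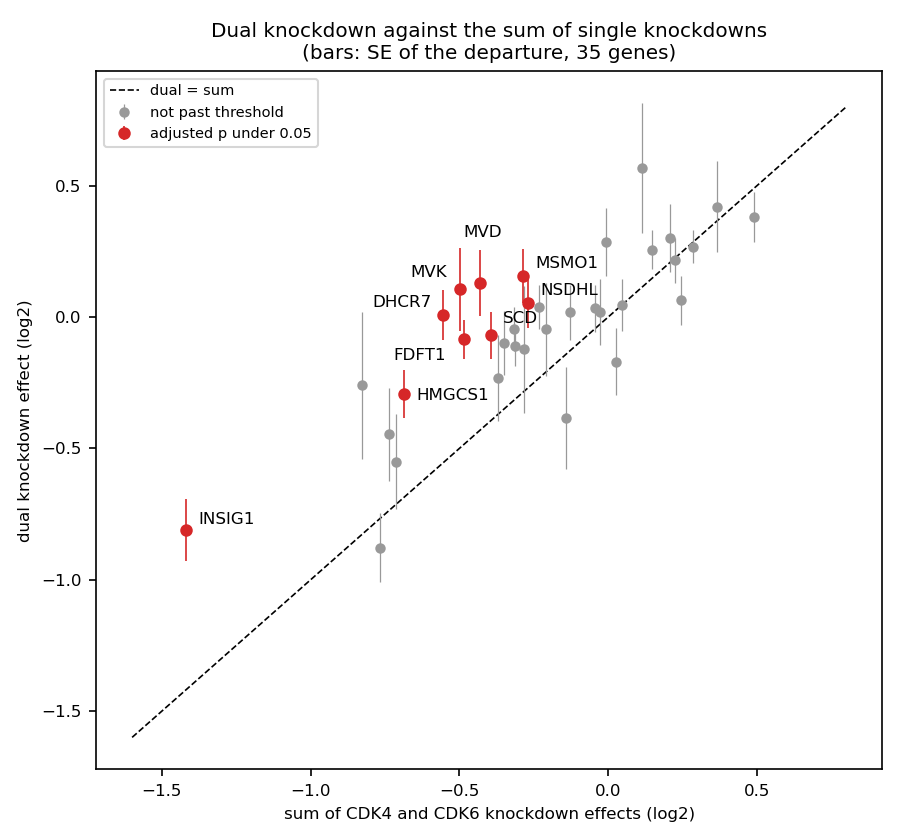
Dual knockdown effect (vertical axis, log2) against the sum of the CDK4 and CDK6 knockdown effects (horizontal axis, log2) for 35 members, each against the same 6 control libraries; the diagonal marks equality and coloured points departed from it by limma. All 9 coloured points lie above the diagonal, with INSIG1 at the far left.

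CDK6 and CDK4 knockdown were compared directly, which leaves out the controls. Members were lower in CDK6 knockdown in 13 of 14 calls (38.9% of members, beside 34.8% of all genes, 17.5% higher and 17.3% lower), with ACSS2 as the exception (0.35, adjusted p = 0.000604). The median was -0.13, beside -0.01 over all genes, and 19 members did not overlap (51.7% of all genes). INSIG1 differed by -1.07 (SE 0.09, adjusted p = 5.54e-09), ABCA1 by -0.78 (SE 0.13, adjusted p = 9.11e-05) and SCD by -0.55 (SE 0.07, adjusted p = 1.8e-06). HMGCS1 (-0.53), MVD (-0.41), IDI1 (-0.37) and MSMO1 (-0.35) followed. FADS1 (-0.30), FDPS (-0.27), SQLE (-0.20), ACLY (-0.20), SC5D (-0.20) and FDFT1 (-0.17) were lower by smaller amounts. None of the 14 overlapped between the groups, and 10 were called in every alternative, the exceptions being FDFT1, SQLE, SC5D and FADS1.

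CCND1 and dual knockdown were compared in the same way. By limma 12 members (33.3%) differed, 2 higher and 10 lower in CCND1 knockdown, beside 20.3% of all genes (11.2% higher and 9.12% lower). The median was -0.09, beside 0.00 over all genes, and 20 members did not overlap (40.9% of all genes). LSS differed by -0.55 (SE 0.19, adjusted p = 0.0412), with 292, 282 and 289 in CCND1 knockdown, FDFT1 by -0.50 (SE 0.06, adjusted p = 1e-06) and MVK by -0.47 (SE 0.12, adjusted p = 0.00661). ACLY (-0.40), SREBF2 (-0.36), DHCR7 (-0.33), MVD (-0.30), MSMO1 (-0.26), NSDHL (-0.22) and SC5D (-0.21) were lower too, while NR1H3 (0.42) and FADS1 (0.28) were higher. Only FDFT1, DHCR7, SREBF2 and ACLY were called in every alternative. The count fell to 6 without CCND1 knockdown replicate 1, and to 7 without CCND1 knockdown replicate 2 or 3 or dual knockdown replicate 1. How the share of all genes moved with it is not given.

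Across the 7 groups the levels of single members followed different orders. INSIG1 ran from proliferating cells (mean 1322 ± 16.0, SD, n = 3) through NT3 (1046 ± 95.2), CDK4 knockdown (734 ± 55.4), NT4 (654 ± 21.6), CCND1 knockdown (525 ± 21.2) and the dual knockdown (472 ± 46.3) to CDK6 knockdown (349 ± 40.5). Neighbours in this order did not overlap, except that the dual knockdown's highest library (522) lay above the lowest of CCND1 knockdown (509). HMGCS1 was highest in NT3 (1444 ± 134) and lowest in proliferating cells (631 ± 23.8), with CDK6 knockdown (844 ± 7.65) next to lowest. SCD in every irradiated group lay between 2744 ± 31.7 (CDK6 knockdown) and 4251 ± 526 (NT3), far below 16895 ± 545 in proliferating cells. No knockdown library reached the range of the proliferating libraries at SCD, FADS2 or FASN. In FADS2 the irradiated libraries all lay between 2845 and 3800.2, and it was called in no comparison within the irradiated groups.

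Genes of the wider pathway were counted from 7 lists, of which 98 genes were tested. In senescent controls against proliferating cells 41 were higher and 36 lower (78.6%, beside 68.6% of all genes), and values that follow are log2 fold changes. Among 11 further SREBP targets 2 rose and 7 fell, with TMEM97, an endoplasmic reticulum sterol-binding protein, falling most (-1.61, adjusted p = 2.63e-11) and ERG28, a scaffold of sterol enzymes, rising most (0.28, adjusted p = 0.00365). Among 20 genes of cholesterol uptake, trafficking and storage 9 rose and 5 fell. NPC1, which exports cholesterol from lysosomes, was at 2236 ± 383 (SD, n = 6) against 689 ± 37.2 (n = 3) and rose on the log2 scale by 1.68 (adjusted p = 4.28e-12). VLDLR, a lipoprotein receptor, fell most (-0.74, adjusted p = 6.93e-07). Among 15 genes of SREBP processing and sterol-regulated degradation 5 rose and 7 fell, with NFYB, an NF-Y subunit, at -0.93. The non-sterol isoprenoid list (14 genes, 4 higher and 7 lower) had RABGGTA, a geranylgeranyl transferase subunit, at 0.90 and COQ2, of ubiquinone synthesis, at -1.46. Fatty acid elongation and activation genes (18) counted 9 higher and 5 lower, with ELOVL2 at -1.71. ELOVL7, with 0 counts in all 3 proliferating libraries and a mean of 16.1 in the senescent controls, was the largest fitted rise of its list, and no fold is given for it. Fatty acid oxidation genes (13) counted 8 higher and 3 lower. PDK4, a kinase that spares glucose, had a mean of 26.7 ± 10.2 (SD, n = 6) in the controls and 0 in the proliferating libraries, and PPARA was at -0.61. Of 7 further LXR pathway genes 4 rose and 2 fell, with RXRA, the partner of LXR, at -0.53. APOE, an acceptor of exported cholesterol, was at 113 ± 29.8 (SD, n = 6) against 8.76 ± 0.803 (n = 3) and rose on the log2 scale by 3.52 (adjusted p = 1.97e-13).

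In the dual knockdown 32 of the 98 pathway genes were higher and 21 lower (54.1%, beside 44% of all genes). LIPA, the lysosomal cholesterol ester hydrolase, was at 1488 ± 66.2 (SD, n = 3) against 950.0 ± 99.4 (n = 6) and rose on the log2 scale by 0.65 (adjusted p = 1.2e-08). APOE was at 34.7 ± 0.449 (SD, n = 3) against 113 ± 29.8 (n = 6), a log2 fold change of -1.64 (adjusted p = 2.3e-07). Of the further LXR pathway genes 3 were higher and 2 lower, with SMPDL3A the largest rise (0.35). TMEM97 (-0.73) was lower, and SEC23A, a coat protein of vesicles that leave the endoplasmic reticulum (0.54), and GPAM, which starts glycerolipid synthesis (0.32), were higher. In the oxidation list 7 were higher and 3 lower, with SLC25A20, the carnitine carrier, at 0.67. HACD1 (0.80), PGGT1B (0.38) and ICMT (-0.22) were the other genes that led their lists. By list, the counts of higher and lower genes were 4 and 3 for further SREBP targets, 5 and 1 for SREBP processing, 6 and 6 for uptake and storage, 2 and 1 for non-sterol isoprenoids and 5 and 5 for elongation and activation. CH25H, PDK4 and ELOVL7 were called as lower at means of 1.03, 3.77 and 4.95 normalised counts in the dual knockdown, too few reads for a firm fold. Under the other knockdowns the counts were 23 higher and 17 lower for CCND1 (40 of 98, beside 31% of all genes), 14 higher and 16 lower for CDK4 (30.6%, beside 16%), and 27 higher and 24 lower for CDK6 (52.0%, beside 41.9%). NT4 against NT3 gave 12 higher and 20 lower (32.7%, beside 27.8%).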

How the data were processed

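The submitters' processing notes name Trimmomatic 0.38.1, HISAT2 2.2.1, featureCounts 2.0.3, FastQC 0.74, MultiQC and DESeq2 2.11.40.8, and the builds hg38 and GRCh38, without stating their roles. In the deposited table each gene has 1 signal value per library, a normalised count per the file headers. Values in each library were whole multiples of 1 step, and 100% returned whole reads within a tolerance of 0.1 reads. Strand setting and handling of shared reads are not given in the sources used here, so genes that overlap a neighbour or have near-identical copies are uncertain.

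Genes with a value of 10 or more in 3 or more libraries were tested (11579 of 16383). To each value 1 was added, and its log2 entered a limma 3.58.1 fit (R 4.3.3) of all 7 groups with a trended empirical Bayes variance. Tests were two-sided, with Benjamini-Hochberg adjustment over all tested genes within each of 9 comparisons and a threshold of 0.05. Senescent controls are the mean of the NT3 and NT4 group means. Recovered reads were also tested with edgeR 4.0.16 (quasi-likelihood) and DESeq2 1.42.0 in 20 libraries. Dual knockdown replicate 3 was left out because its step lay near 1 (1.001), although its values too returned whole reads. For senescent controls against proliferating cells limma, edgeR and DESeq2 called 7945, 7941 and 7946 genes, and for the dual knockdown 5094, 4211 and 4260. The fit was also run on simulated counts, with the same setting of spread for every gene and no library apart from its group. NT3 replicate 3 stood apart in the real data, so that run does not test the fit for such a library. Other alternatives changed the added constant to 0.1 or 10, dropped the filter or required a mean of 100, rescaled by median centring or quantile normalization, used either control alone or the compared groups alone, or left out each library.

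Column names of the table show a library's group without a replicate number, and the numbers used here follow column order as names only. Nothing says that libraries of a group came from separate cultures, so p-values measure the spread between these samples, which may be technical. The series description numbers the non-targeting siRNAs differently from the sample titles, whose names NT3 and NT4 are kept. The members, the gene lists and the tests were chosen with earlier results of these data known. Every member could be named. Values in every library are given for HMGCS1, SQLE, INSIG1, SREBF1, SREBF2, FASN, SCD and ABCA1 and, per comparison, for the 3 called members with the largest change. Of each pathway list the called genes with the largest rise and fall were named, except a gene that is not reported here.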

Additional observations from a re-analysis of the deposited data

Results flagged for a closer look

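The 9 members that departed from additivity are listed for a closer look because limma's interaction test called them with both controls used. That test asks whether the CDK4 siRNA had a different effect in the presence of the CDK6 siRNA than alone. The dose per siRNA in the dual knockdown is not stated here, so an interaction and a different dose cannot be told apart. The departures on the log2 scale were 0.61 for INSIG1, 0.6 for MVK, 0.56 for MVD, 0.56 for DHCR7, 0.44 for MSMO1, 0.4 for FDFT1, 0.39 for HMGCS1, 0.32 for NSDHL and 0.32 for SCD. All 9 lay above the sum of the single knockdowns. The single-knockdown groups, the dual knockdown and the controls had 3, 3 and 6 libraries, and each effect was measured against the same controls. With NT4 alone as control the departure of INSIG1 was 0.27 and not called, and that of MVK 0.35 and not called. HMGCS1, MSMO1, NSDHL and SCD were not called with NT4 alone either. Of the 9, 3 (MVD, FDFT1 and DHCR7) were called in every alternative. Mean CDK6 was 773 in CDK6 knockdown and 968 in the dual knockdown, and the part of that difference in the departures was not tested.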

How the results depend on the processing

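Of the members called, 21 of 28 were called in every alternative tried for senescent controls against proliferating cells, 9 of 21 for NT4 against NT3, 6 of 12 for CCND1, 0 of 8 for CDK4, 7 of 17 for CDK6 and 5 of 14 for the dual knockdown, 3 of 9 for its departure from the sum, 10 of 14 for CDK6 against CDK4 and 4 of 12 for CCND1 against dual knockdown. A fit of the compared groups alone called 9 members for NT4 against NT3 (21 with all groups) and 2 for CDK4 knockdown (8 with all groups). Against NT3 alone the counts were 21 for CCND1 knockdown, 16 for CDK4 knockdown and 15 for the departure from the sum, and against NT4 alone the last was 4. Member counts in these alternatives are given without the share of all genes called in the same setting. They compare settings, and do not set the members apart from other genes. Leaving out each library in turn gave 9 to 20 for CCND1 knockdown, 4 to 13 for CDK4 knockdown, 6 to 14 for the departure and 6 to 8 for CCND1 against dual knockdown; the 3 highest counts came without NT3 replicate 3 for the first 3 of these. In the column names each run of library numbers held a library of every irradiated group. Proliferating libraries were numbered after all of these, so number order and irradiation cannot be told apart. A block by these runs, an alternative added after seeing the data, gave 4 for CDK4 knockdown. The same 18 irradiated libraries with no replicate block also gave 4. Deviations from the group means over all tested genes had correlations of -0.11 to 0.10 (median 0.037) over 45 same-run pairs. Over 90 other pairs they were -0.14 to 0.16 (median -0.017). These ranges cannot exclude a small effect shared within a run. Signs turned at some members, not all at small values. Against NT3 alone they turned at ACSS2 (0.16) in senescent controls, ACLY (0.064) in CCND1 and FDPS (-0.16) in dual knockdown. In CDK4 knockdown against NT3 alone they turned at FDPS (-0.18) and at ACSS2 (-0.24, beside 0.069 with both controls). Against NT4 alone they turned at ACLY (0.13) in senescent controls, EBP (0.075) in CCND1, and EBP (0.10) and ACLY (-0.16) in CDK6 knockdown. ABCA1 between NT4 and NT3 ran from -0.24 to 0.20 with a library left out. Its negative value came without NT3 replicate 3 and was called (adjusted p = 0.019 by limma). The cause of these turns was not tested. Depth limits ACACA, TM7SF2, HSD17B7 and NR1H3 most, the members with fewer than 100 reads in some library.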
